A study of Mus musculus with 6 samples.

Results

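Hnf4a, Foxa1, Foxa2, Foxa3, Onecut1, Prox1, Hhex and Tbx3 encode transcription factors of the hepatoblast, the liver progenitor cell. They were taken by name from the deposited expression table, and all 8 were found, of 23279 genes tested. RNA of whole fetal liver dissected at embryonic day 11.5 had been hybridised to 6 Affymetrix arrays, 3 per group. One group is labelled Stab2Cre;Gata4 knockout. The other, the control, is labelled Stab2Cre;Gata4 heterozygous. The labels describe a cross of Stab2-Cre tg/wt;Gata4 fl/wt mice to Gata4 fl/fl mice, so that each embryo of either group inherits a floxed Gata4 allele, and by their titles both groups carry the Cre. Stab2 is a gene of sinusoidal endothelium, so the Cre is meant to act in a cell type other than the hepatoblast. Where it acted was not measured here. A whole liver also holds blood, mesenchyme and vessels beside hepatoblasts.

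Hepatoblasts bud from the foregut endoderm and give rise to hepatocytes and bile duct cells. FOXA proteins open chromatin at liver genes before these are active, HNF4A, a nuclear receptor, then maintains hepatic transcription, and the homeodomain factors ONECUT1, HHEX and PROX1 act in the growth and migration of the liver bud. TBX3, a T-box repressor, keeps hepatoblasts dividing and on the hepatocyte path. Several of these factors bind one another's genes. Most are also made outside hepatoblasts: HHEX in endothelium and blood progenitors, PROX1 in lymphatic endothelium and heart, and TBX3 in mesenchyme and heart.

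In the livers labelled knockout, Foxa1 rose 1.68-fold and Tbx3 1.65-fold, while the other 6 factors did not pass the test. The values are log2 expression values normalised by the authors with RMA, and the test was limma fitted over all 23279 genes, with Benjamini-Hochberg adjustment and a threshold of 0.05. Of the 8 factors, 2 were called higher and 0 lower, and 3.59% of all genes were called higher. The median log2 fold change of the 8 was 0.39, against -0.01 over all genes. The groups did not overlap for Foxa1, Tbx3 and Hnf4a, each higher in the livers labelled knockout, as was so for 13.0% of all genes (27.3% in either direction and 14.3% lower). The count of 2 called became 5 without labelled knockout replicate 2 (2.67% of all genes called higher), 1 without control replicate 2, and 0 without labelled knockout replicate 3 or without control replicate 3. The calls over all genes dropped in these last fits too. From 836 genes called higher with all 6 arrays, 212 remained without control replicate 2. There were 175 without labelled knockout replicate 3 and 25 without control replicate 3. Leaving out labelled knockout replicate 1 or 2 or control replicate 1 gave 785, 621 and 300. Genes called lower went from 644 to 610, 301 and 87 without labelled knockout replicates 1, 2 and 3. Without control replicates 1, 2 and 3 they were 255, 155 and 16. List counts without 1 array, given below, are to be read beside these. Fewer cells of a type and less RNA per cell cannot be told apart in such bulk samples, nor can more of either.

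Gata4 itself does not check the labels: it read 10.38, 10.26 and 10.64 in labelled knockout replicates 1, 2 and 3 and 9.90, 9.96 and 9.87 in the controls (log2 fold change 0.51, limma adjusted p = 0.0409), and where its probes lie relative to the deleted part is not known here. Stab2, whose promoter drives the Cre, read 7.14, 6.32 and 6.99 against 8.10, 8.22 and 8.02 (-1.30, adjusted p = 0.0161), but it is not the deleted gene. Every direction below therefore rests on the labels. The sexes were unbalanced. Xist, the X-inactivation RNA, read 10.31 to 10.71 in all livers labelled knockout, 10.19 in control replicate 2, and only 3.58 and 3.96 in control replicates 1 and 3, where Y-linked Uty read 8.18 and 8.15. With a sex term in the model 0 of the 8 factors, 0 genes of the lists below and 3 of all genes passed. Only control replicate 2 shares the high Xist of the livers labelled knockout. In the model with a sex term the group difference is therefore the mean of those livers minus this control. Values against control replicate 2 alone, given for each factor, are this same estimate, which rests on a single control array. That array also stood apart in a list of heart muscle genes. Its list median was 1.01 above the control mean, against -0.09 and -0.64 in control replicates 1 and 3. The defining hepatoblast products were high in both groups: albumin Alb read 13.42 ± 0.09 and 13.46 ± 0.07 and alpha-fetoprotein Afp 13.42 ± 0.09 and 13.35 ± 0.07 in livers labelled knockout and control livers (mean ± SD, n = 3).

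**Figure D1:**
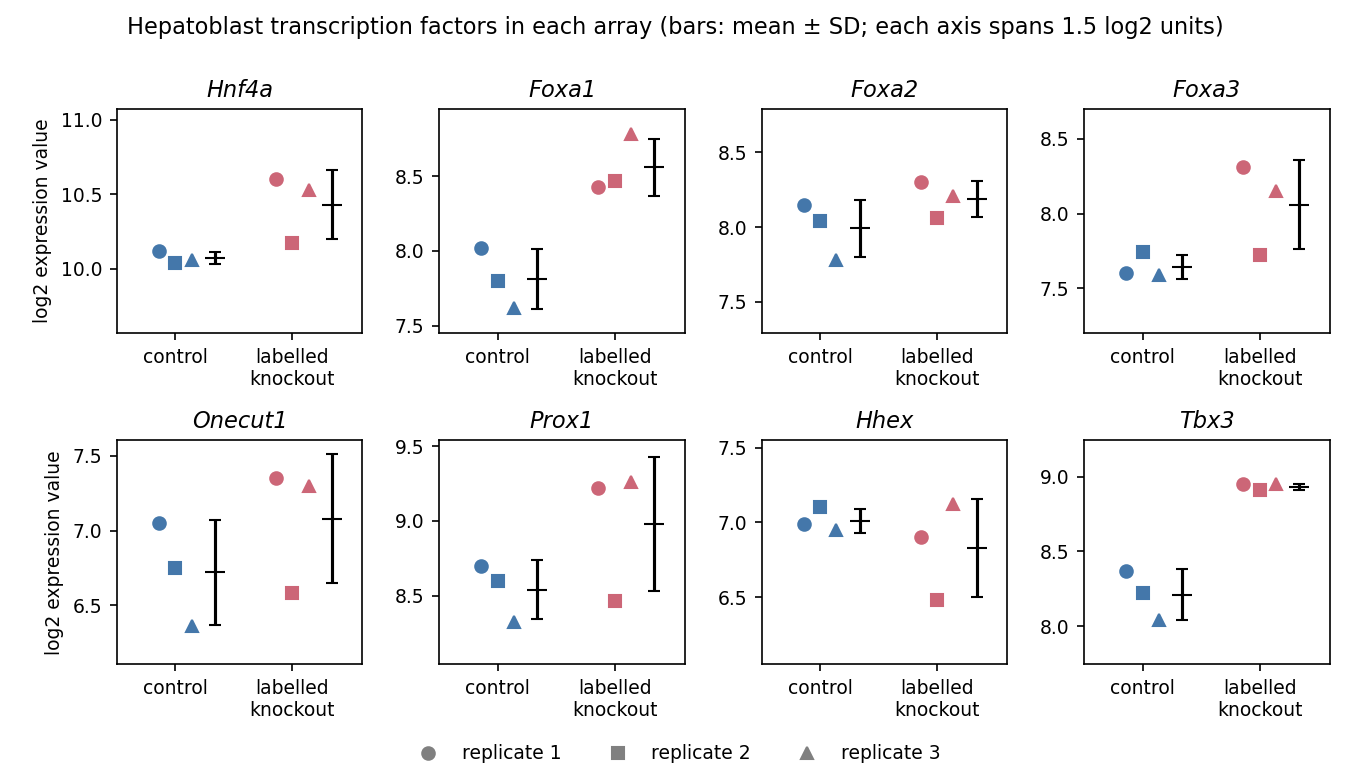
Each panel plots the log2 expression value of 1 factor (vertical axis, spanning 1.5 log2 units in every panel) in the 3 control and 3 labelled knockout arrays; symbols mark the replicate number, and bars give the mean ± SD. Foxa1 and Tbx3 stand apart between groups, and labelled knockout replicate 2 (square) is the lowest of its group for 7 of the 8 genes.

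Because these factors bind one another's genes, the RefSeq sequence before their start sites (GRCm38.p6) was searched on both strands. The search covered letters bound by FOXA, HNF4A, ONECUT, T-box and GATA factors. Letters bound by HHEX or PROX1 were not searched. Promoter windows were at hand for 7 factors, all but Tbx3, with 11 start sites in all, and all 250 bases before each start were searched. A FOXA match was TGTTTAC, which 3.17% of 32851 RefSeq windows of that length hold. An ONECUT match was ATCAATA, held by 1.86% of them. An HNF4A match was CAAAGTCCA, held by 0.384%. A T-box match was AGGTGTGA, held by 1.12%. A GATA match was AGATAA, held by 9.99%. The windows shown are those with a match to letters bound by a member, and every match is in capitals.
Foxa1, chr12:57546112-57546361, minus strand: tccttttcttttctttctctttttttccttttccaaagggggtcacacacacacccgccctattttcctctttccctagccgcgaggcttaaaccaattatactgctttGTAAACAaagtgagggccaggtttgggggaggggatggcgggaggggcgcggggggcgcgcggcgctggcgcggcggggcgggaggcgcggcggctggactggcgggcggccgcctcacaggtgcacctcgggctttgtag
Hnf4a, chr2:163506607-163506810, plus strand: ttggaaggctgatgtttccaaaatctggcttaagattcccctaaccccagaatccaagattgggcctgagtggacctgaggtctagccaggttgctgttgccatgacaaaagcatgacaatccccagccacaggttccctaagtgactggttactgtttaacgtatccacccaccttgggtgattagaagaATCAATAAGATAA
Foxa2, chr2:148046970-148047219, minus strand: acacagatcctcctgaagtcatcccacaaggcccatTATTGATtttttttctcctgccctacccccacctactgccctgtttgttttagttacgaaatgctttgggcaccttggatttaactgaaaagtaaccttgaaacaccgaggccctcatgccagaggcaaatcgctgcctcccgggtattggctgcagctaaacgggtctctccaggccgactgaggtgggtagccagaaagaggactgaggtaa
In the Foxa1 window the FOXA letters lie on the opposite strand, 135 to 141 bases before the start, and the window is inside a longer gene model of the table. In the Hnf4a window the ONECUT letters, 53 to 59 bases before the start, are followed directly by GATA letters at 47 to 52, and of the 250 bases searched the 204 up to where a longer gene model begins are printed. In the first Foxa2 window the ONECUT letters lie on the opposite strand at 208 to 214 bases. The 1 remaining match was a GATA one at the third Foxa2 start, 178 to 183 bases before it. The windows of Foxa3, Onecut1, Prox1 and Hhex held none of these letters. A match is letters in a window, and no binding was measured here.

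Of the 3 FOXA paralogs, Foxa1 passed the test and Foxa2 and Foxa3 did not. Foxa1 read 8.43, 8.47 and 8.78 in labelled knockout replicates 1, 2 and 3 and 8.02, 7.80 and 7.62 in control replicates 1, 2 and 3. All livers labelled knockout lay above all controls, the lowest by 0.41 over the highest control. The group means were 8.56 ± 0.19 and 7.81 ± 0.20, a rise of 1.68-fold (log2 fold change 0.75, SE 0.14, 95% interval 0.43 to 1.07, limma adjusted p = 0.0266). Of all genes, 1.82% had a larger log2 rise. Against control replicate 2 alone the difference was 0.76 on the log2 scale. Foxa1 no longer passed when labelled knockout replicate 3 was omitted (0.64, limma adjusted p = 0.0783), when control replicate 2 (0.74, adjusted p = 0.0792) or control replicate 3 (0.65, adjusted p = 0.0998) was omitted, or with a sex term (0.76, SE 0.21, adjusted p = 0.219).

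Foxa2, which acts with Foxa1 at the onset of liver development, read 8.30, 8.06 and 8.21 in the livers labelled knockout and 8.15, 8.04 and 7.78 in the controls. The groups overlapped, and the difference of 0.20 did not pass (SE 0.12, 95% interval -0.08 to 0.48, limma adjusted p = 0.400). That interval spans fold changes from 0.945 to 1.39. Foxa3, the other FOXA paralog, read 8.31, 7.72 and 8.15 against 7.60, 7.74 and 7.59. Labelled knockout replicate 2 lay among the controls, and the other two livers labelled knockout lay above them. The Foxa3 difference of 0.42 did not pass (SE 0.15, 95% interval 0.07 to 0.77, adjusted p = 0.149), but passed without labelled knockout replicate 2 (0.59, SE 0.11, adjusted p = 0.0326), and was 0.29 without replicate 1 (adjusted p = 0.302). Against control replicate 2 alone the log2 differences were 0.15 for Foxa2 and 0.32 for Foxa3.

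The FOXA genes were next set against one another within each array, which asks whether they changed unequally. The log2 value of Foxa1 minus that of Foxa2 was 0.13, 0.41 and 0.58 in the livers labelled knockout and -0.13, -0.24 and -0.16 in the controls. The groups did not overlap, and the mean difference of 0.55 had p = 0.1 by a two-sided exact permutation test, the smallest p that 3 arrays against 3 allow. Foxa1 minus Foxa3 was 0.12, 0.75 and 0.63 against 0.42, 0.06 and 0.03. Here the groups overlapped, with a mean difference of 0.33 (two-sided exact permutation p = 0.2). With 3 arrays a group this test cannot reach 0.05, so it decides for neither pair whether the paralogs changed unequally.

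Hnf4a, the nuclear receptor on which the hepatocyte program depends, read 10.60, 10.17 and 10.53 in the livers labelled knockout and 10.12, 10.04 and 10.06 in the controls. The controls lay within 0.08 of each other and every liver labelled knockout was above them, replicate 2 by only 0.05. The means were 10.43 ± 0.23 and 10.07 ± 0.04, and the difference of 0.36 did not pass (SE 0.13, 95% interval 0.07 to 0.65, limma adjusted p = 0.136). Without labelled knockout replicate 2 it was 0.49 and passed (SE 0.10, adjusted p = 0.0381), whereas without labelled knockout replicate 1 it was 0.28 (adjusted p = 0.277). Against control replicate 2 alone it was 0.39. The table lists a pair of Hnf4a starts, and a single feature reads the gene, so transcripts from either start cannot be told apart.

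Onecut1, also known as HNF6, a cut-homeodomain factor of liver and bile duct, read 7.35, 6.58 and 7.30 in the livers labelled knockout and 7.05, 6.75 and 6.36 in the controls. Replicate 2 of the livers labelled knockout was below 2 of the 3 controls. The difference of 0.36 did not pass (SE 0.24, 95% interval -0.19 to 0.91, limma adjusted p = 0.448), and it was 0.33 against control replicate 2 alone. Its standard error was the highest of the 8 factors. It ran from 0.18 without control replicate 3 (adjusted p = 0.793) to 0.61 without labelled knockout replicate 2 (adjusted p = 0.122) and passed in none of the 6 fits that leave out 1 array.

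Prox1, a homeodomain factor needed for hepatoblasts to migrate out of the liver bud, read 9.22, 8.46 and 9.26 in the livers labelled knockout and 8.70, 8.60 and 8.32 in the controls. Replicates 1 and 3 of the livers labelled knockout were above all controls and replicate 2 was among them. The difference of 0.44 did not pass (SE 0.22, 95% interval -0.05 to 0.94, limma adjusted p = 0.274), and it passed without labelled knockout replicate 2 (0.70, SE 0.13, adjusted p = 0.0351). It was 0.31 without labelled knockout replicate 3 (adjusted p = 0.533). Against control replicate 2 alone it was 0.39.

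Hhex, a homeodomain factor that the early liver bud needs to expand, was the 1 factor with a lower mean. It read 6.90, 6.48 and 7.12 in the livers labelled knockout and 6.99, 7.10 and 6.95 in the controls. The groups overlapped, with the highest value of all 6 arrays in labelled knockout replicate 3 and the lowest in replicate 2. The difference of -0.18 did not pass (SE 0.16, 95% interval -0.55 to 0.19, limma adjusted p = 0.588). It was -0.27 against control replicate 2 alone and -0.0037 without labelled knockout replicate 2.

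Tbx3 gave the smallest p of the 8. It read 8.95, 8.91 and 8.95 in the livers labelled knockout and 8.37, 8.22 and 8.04 in the controls. The livers labelled knockout were almost alike, and the lowest of them was 0.54 above the highest control. The means were 8.93 ± 0.02 and 8.21 ± 0.17, a rise of 1.65-fold (log2 fold change 0.73, SE 0.11, 95% interval 0.48 to 0.97, limma adjusted p = 0.0142). Against control replicate 2 alone the difference was 0.71. Tbx3 no longer passed when labelled knockout replicate 3 (0.72, limma adjusted p = 0.0533) or control replicate 3 (0.64, adjusted p = 0.0605) was omitted, or with a sex term (0.71, SE 0.16, adjusted p = 0.175).

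**Figure D2:**
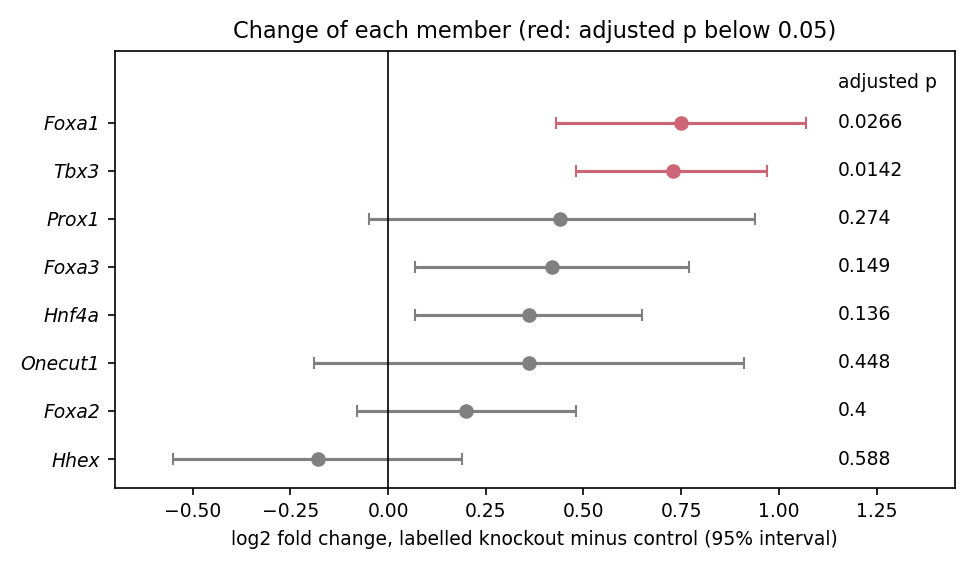
Points give the log2 fold change of each factor, livers labelled knockout minus controls (horizontal axis), bars its 95% interval from limma, and the numbers at the right the adjusted p over all genes. Foxa1 and Tbx3 (red) passed 0.05, the intervals of Hnf4a and Foxa3 lie above 0 without passing, and those of Prox1, Onecut1, Foxa2 and Hhex cross 0.

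Labelled knockout replicate 2 separated the factors. It was the lowest of the 3 livers labelled knockout for 7 of the 8 factors, Foxa1 being the exception, against 35.9% of all genes. It lay below the mean of the other two by 0.77 for Prox1, 0.75 for Onecut1, 0.53 for Hhex, 0.51 for Foxa3 and 0.40 for Hnf4a on the log2 scale. For Foxa2, Foxa1 and Tbx3 it lay below by 0.19, 0.14 and 0.04. Hepatoblast products were lowest in this array in 25 of 35 cases, with a median gap of -0.28, and mesenchymal and mesothelial genes in 13 of 19, with a median gap of -0.29. Among blood genes 10 of 17 were lowest there, with a median gap of -0.23. Other transcription factors of the liver were lowest there in 12 of 25 cases, with a median gap of only -0.07. Over all genes the median gap was 0. The part of this array's makeup in the member results was not tested beyond leaving it out.

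**Figure D3:**
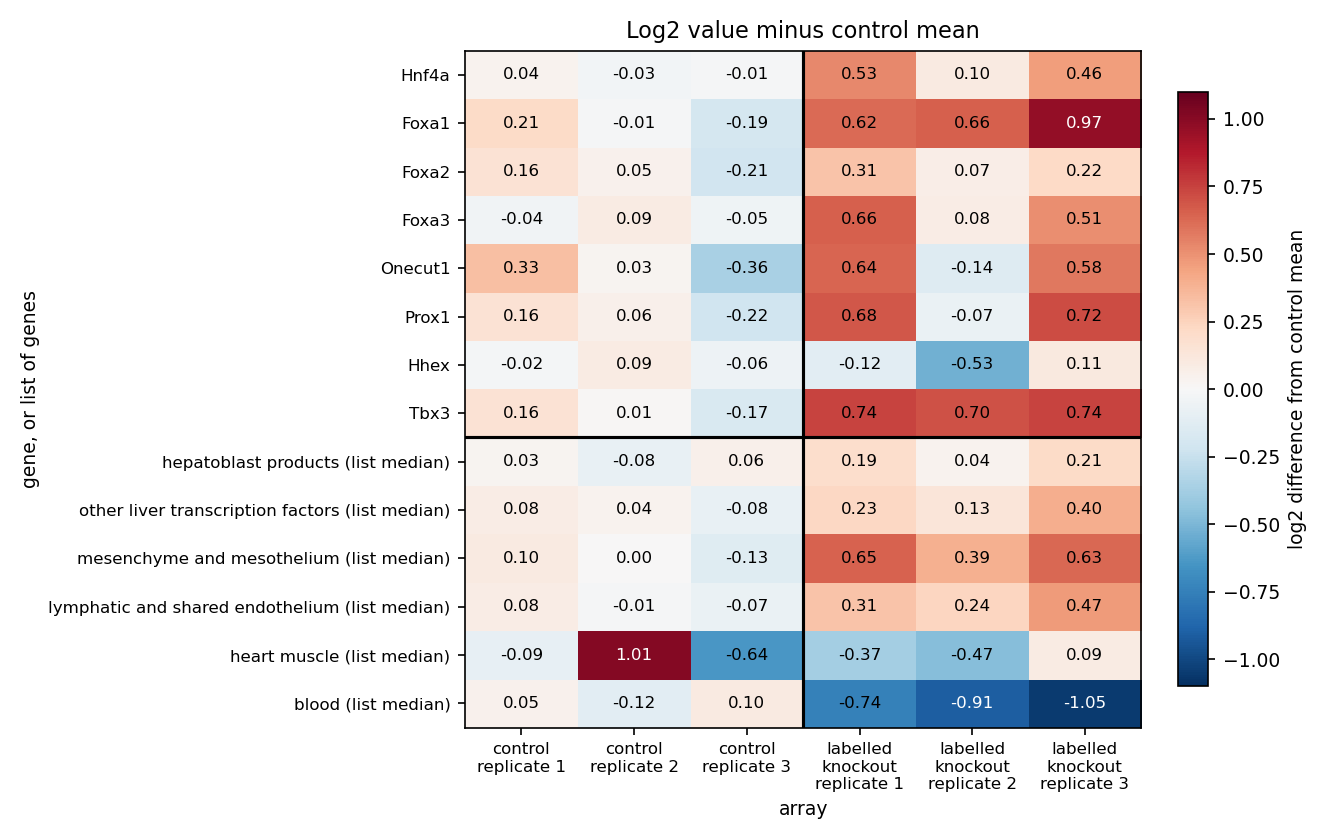
Cells give the log2 value minus the control mean for each factor (upper 8 rows) and the median of this over each marker list (lower rows) in the 6 arrays (columns); red is above and blue below the control mean. Foxa1 and Tbx3 are red in all livers labelled knockout (0.62 to 0.97 and 0.70 to 0.74), whereas Onecut1, Prox1 and Hhex are below the control mean in replicate 2.

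**Figure D4:**
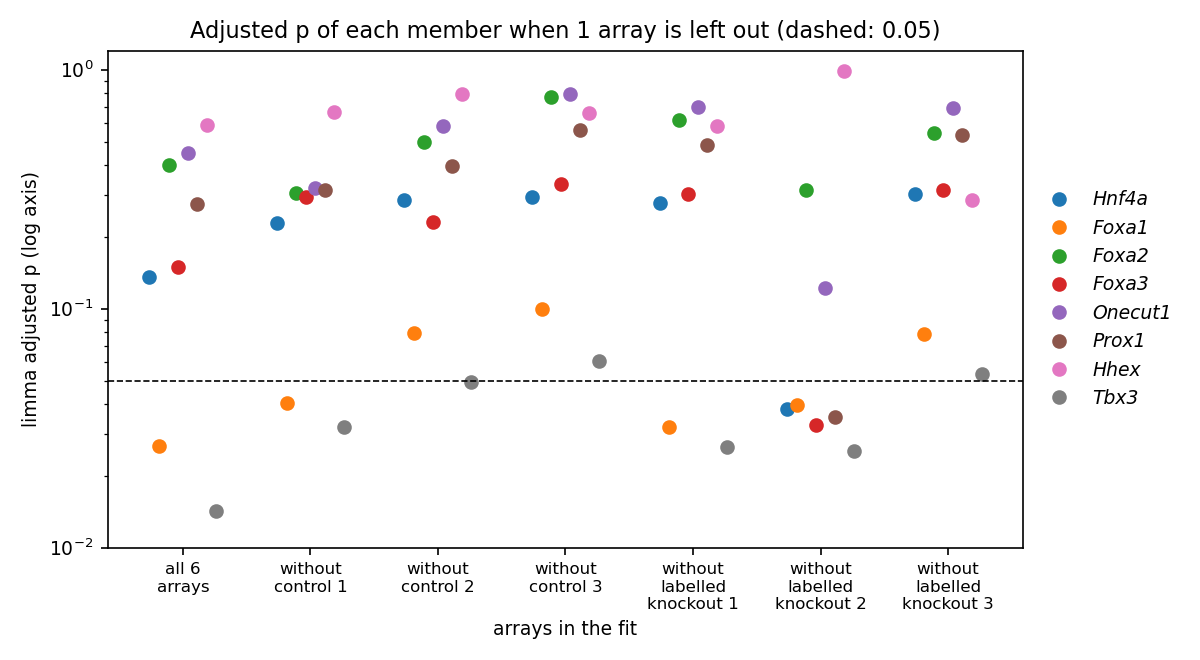
Points give the limma adjusted p of each factor (vertical log axis) with all 6 arrays and with each array left out (horizontal axis); the dashed line marks 0.05. Without labelled knockout replicate 2 Hnf4a, Foxa3 and Prox1 join Foxa1 and Tbx3 below the line, and without control replicate 3 no factor is below it.

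Genes that hepatoblasts make, many of them targets of these factors, did not pass. Of 35 measured products (plasma proteins, apolipoproteins, keratins and surface proteins of the lineage), 0 were called in either direction by limma, against 6.36% of all genes. An unadjusted limma p under 0.05 was found for 13 of them, against 22.5% of all genes. Of these, 11 were higher, and 11.1% of all genes had such a p and were higher. The groups did not overlap for 13 products higher and 2 lower, against 13.0% and 14.3% of all genes. The median log2 fold change was 0.10, with 24 positive and 11 negative. Prothrombin F2 (0.44, adjusted p = 0.0591), keratin Krt18 (0.50, adjusted p = 0.0756), antithrombin Serpinc1 (0.49, adjusted p = 0.0962) and fibrinogen chain Fgg (0.52, adjusted p = 0.0981) had the smallest p. Alb (-0.05, adjusted p = 0.847), Afp (0.07, adjusted p = 0.743) and the apolipoprotein Apoa1 (-0.11, adjusted p = 0.649) did not pass. Alb and Afp lie close to the highest value on the arrays (13.91), which quantile normalisation makes the same in each, so these values bound little. A variance trend called 3 products (F2, Fgg and Krt18) and array weights 2 (F2 and Serpinc1), each higher. The fit without labelled knockout replicate 2 called 4 (Dlk1, F2, Serpinc1 and Serpinf1), each higher. Over all genes 1021 were called higher with a variance trend, 949 with array weights and 621 without labelled knockout replicate 2. The main fit called 836 higher.

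Each factor was then set against the median hepatoblast product of the same array, which gives its level relative to other genes of the lineage. Relative to the products, Foxa1 was higher by 0.60 in the livers labelled knockout and Tbx3 by 0.58, with no overlap between groups. Hnf4a was higher by 0.22, also with no overlap, although replicate 2 of the livers labelled knockout (10.13) was barely above control replicate 2 (10.12). For each of these genes the two-sided exact permutation p was 0.1, the smallest possible, and 0.267 adjusted over the 8 factors. The share of all genes without overlap on this relative measure was not counted. On the plain log2 values 13.0% of all genes were higher without overlap. Foxa3 (0.27), Prox1 (0.30), Onecut1 (0.21) and Foxa2 (0.05) overlapped between groups, with exact permutation p of 0.2, 0.3, 0.5 and 1. Hhex was lower, by -0.33 (exact permutation p = 0.2), and overlapped too. With Hnf4a as the reference in place of the products, the differences were 0.39 for Foxa1 (two-sided exact permutation p = 0.2), 0.36 for Tbx3 (p = 0.1), 0.06 for Foxa3 (p = 0.5) and -0.54 for Hhex (p = 0.1).

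**Figure D5:**
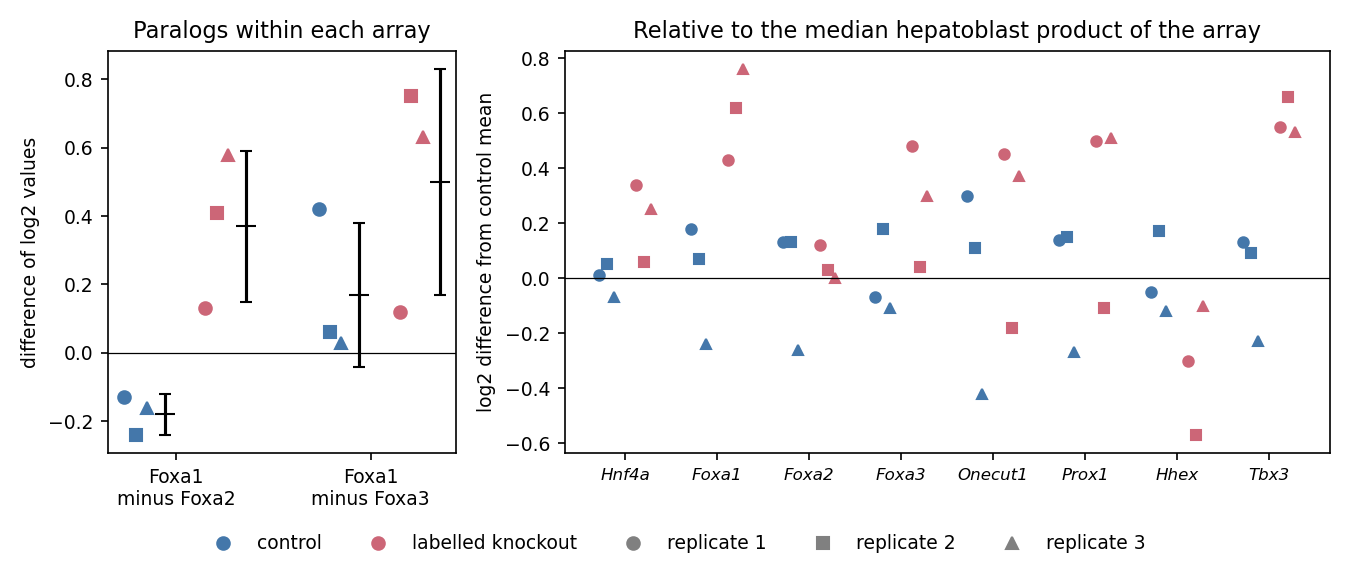
The left panel plots the log2 value of Foxa1 minus that of Foxa2 or Foxa3 in each array with mean ± SD, and the right panel each factor's log2 value relative to the median hepatoblast product of its array, as a difference from the control mean. Foxa1 minus Foxa2 is higher in all livers labelled knockout (0.13 to 0.58) than in any control, and in the right panel Foxa1 and Tbx3 separate most between groups. Values of different genes come from different features, so only the shift between groups is read, not the sign.

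Among 25 other transcription factors of the liver, 3 rose and 0 fell (median log2 fold change 0.29), beside 3.59% of all genes called higher. They were Nr2f2 (COUP-TFII, a nuclear receptor also made by mesenchyme and veins; 0.76, SE 0.09, limma adjusted p = 0.0104), Nfia (0.82, SE 0.15, adjusted p = 0.0255) and Sox9, a factor of bile duct progenitors (0.88, SE 0.18, adjusted p = 0.0336). Lhx2, a factor of stellate cells, did not pass (0.62, adjusted p = 0.0755). The count was 5 without labelled knockout replicate 2 (Lhx2, Nr2f2, Nr5a2, Onecut2 and Sox9). It was 1 without labelled knockout replicate 3 or control replicate 1 (Nr2f2), and 0 without control replicate 3 or with a sex term. Over all genes these fits called 621, 175, 300, 25 and 3 higher in turn. In labelled knockout replicate 2 Sox9 read 8.54, above the 7.84 and 7.87 of replicates 1 and 3, whereas Hnf4a, Prox1 and Onecut1 were lowest in replicate 2.

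Of 10 biliary genes, Sox9 and the keratin Krt19, also a mesothelial marker (0.52, adjusted p = 0.0387), rose and the water channel Aqp1, also abundant in red cells, fell (-1.08, adjusted p = 0.0329), beside 3.59% of all genes called higher and 2.77% lower. Onecut2, the paralog of Onecut1, did not pass (0.48, adjusted p = 0.150). Leaving out labelled knockout replicate 1 gave 1 higher and 1 lower, leaving out its replicate 2 gave 2 higher and 0 lower, and leaving out any 1 of the other 4 arrays gave 0 in both directions.

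The relatives of Foxa1 and Tbx3 by protein family were counted next. Of 34 other forkhead genes, 2 rose, Foxc1 (0.72, adjusted p = 0.0272) and Foxp1 (0.70, adjusted p = 0.0347), and 0 fell, with a median of 0.04, beside 3.59% of all genes called higher. The forkhead count became 3 when labelled knockout replicate 1 was left out, 1 for replicate 2, and 0 for replicate 3 or any 1 control. Over all genes 785, 621 and 175 were called higher without labelled knockout replicates 1, 2 and 3. Without control replicates 1, 2 and 3 these were 300, 212 and 25. Of 10 other T-box genes limma called 0, with 1 at an unadjusted p under 0.05, Tbx2, the closest paralog of Tbx3 (0.40, SE 0.12, adjusted p = 0.102). The heart genes Tbx5 (0.65, adjusted p = 0.230) and Tbx20 (0.43, adjusted p = 0.386) did not pass.

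Markers of other cells that can express these factors moved as well. Of 19 mesenchymal and mesothelial genes 9 rose and 0 fell (median 0.56; 3.59% of all genes rose), among them Bnc1 (0.79), Hand2 (0.71), Col1a2 (0.70) and Pdgfrb (0.56), and their summed linear value (the log2 values turned back to the linear scale and added) was 17200 to 17900 in the livers labelled knockout against 11200 to 12600 in the controls. Leaving out labelled knockout replicate 1, 2 or 3 gave counts of 5, 9 and 1, and leaving out control replicate 1, 2 or 3 gave 3, 1 and 0. Over all genes the same fits called 785, 621 and 175, then 300, 212 and 25 higher, against 836 with all 6 arrays. Of 17 blood genes 0 rose and 9 fell (2.77% of all genes fell; median -0.80), with sums of 10600 to 13400 against 16600 to 20700. Between 1 (without control replicate 3) and 13 (without labelled knockout replicate 1) blood genes fell when an array was left out. There were 3 without labelled knockout replicate 3, 5 without control replicate 1, and 6 without control replicate 2. Over all genes these fits called 16, 610, 87, 255 and 155 lower in turn, against 644 with all 6 arrays. The part of these cells in the rise of Foxa1 and Tbx3 was not tested.

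Of 15 genes of shared and lymphatic endothelium, 4 rose and 1 fell, beside 3.59% of all genes called higher and 2.77% lower (median 0.30; sums of 5770 to 7280 against 5090 to 5670). Pecam1 (0.63), Emcn (1.00) and Cdh5 (0.53) rose, and Lyve1 fell (-1.14). The 4 that rose became 2 without labelled knockout replicate 1 or control replicate 1, 1 without labelled knockout replicate 3, and 0 without control replicate 2 or 3. Over all genes these fits called 785, 300, 175, 212 and 25 higher in turn. Of 15 heart muscle genes limma called 0, with 1 at an unadjusted p under 0.05, as 22.5% of all genes were. Their list median stood at 1.01 above the control mean in control replicate 2 and at -0.64 in control replicate 3, while the list's median log2 fold change was -0.31. Prox1 and Tbx3, which heart also makes, read 8.60 and 8.22 in control replicate 2, between the other two controls. The part of heart tissue in the values of these genes was not tested. Of 12 genes of neighbouring foregut endoderm limma called 0, and 0 at an unadjusted p under 0.05 (sums of 583 to 683 against 546 to 613). RMA values do not reach 0, so the absence of a marker cannot be read from them.

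The genes whose pattern over the 6 arrays was most like that of Foxa1, among 10774 protein-coding genes above the median level, were Selenon (Pearson r = 0.997), Map4k5 (0.994) and Septin10 (0.993). For Tbx3 they were the adhesion molecule Ncam1 (0.998), the collagen chain Col1a2 (0.998) and the matrix protease Mmp14 (0.997). Over these 6 arrays in 2 groups, 645 genes had r above 0.9 with Foxa1 and 797 with Tbx3, so the values serve as a description only. Col1a2, a marker of mesenchyme, read 10.03, 9.95 and 10.02 in the livers labelled knockout and 9.49, 9.30 and 9.10 in the controls.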

How the data were processed

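Whole fetal livers of 6 samples, 3 per group, were profiled on Affymetrix arrays. The deposited values are log2 expression values that the authors made with RMA, per the submitters' processing notes. Chip type and definition are not given in the sources. Sorted values were identical in all arrays (median 5.43), as quantile normalisation leaves them, so a global shift is invisible. Precision is limited by the number of arrays. Of 24479 features, 23281 were named through the platform annotation and RefSeq. That left 23279 genes, and 0 value columns lacked a sample.

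The test was limma (version 3.58.1, R version 4.3.3; lmFit and eBayes, no covariate, no filter; 4 residual and 4.06 prior degrees of freedom), checked on simulated data. The labels call replicates biological, and whether each was a separate embryo is not stated there. Paralog differences and values relative to hepatoblast products were tested by exact permutation. Named were all 8 factors, up to 4 genes per list with the smallest p, and the 3 most alike genes of each factor past the threshold. Other genes are label, sex and tissue checks, or were named after their values were seen because a fit changed their call. The 8 factors and all lists were chosen with earlier results of these data known. Of the list entries, 11 were not analysed here.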

Additional observations from a re-analysis of the deposited data

How the results depend on the processing

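The 8 factors kept their direction in each alternative run that can change a fold change. These were new quantile normalisation, median centring, array weights, sex term, each array left out, and control replicate 2 alone. For every factor the last of these gave the same difference as the sex term. Hhex was only -0.0037 without labelled knockout replicate 2. Variance trend, robust eBayes, filters on the dimmest 25% or 50% of genes and the replicate block leave fold changes as they are. So do leaving out X and Y genes and an adjusted p of 0.1. Those runs bear only on which genes passed. Of 8 factors, 2 passed; without 1 array the count ran from 0 to 5, with a sex term it was 0 and with the replicate block 1 (Tbx3; Foxa1 then had an adjusted p of 0.0638). Same-numbered arrays did not deviate together over genes (correlations of -0.05, -0.01 and -0.08). Such correlations do not settle whether the numbers pair the samples, and the labels do not state it. Foxa1 minus Foxa2 ran from 0.45 to 0.67 and Foxa1 minus Foxa3 from 0.21 to 0.52 without 1 array. Other liver factors numbered 0 to 5 without 1 array, 0 with a sex term and 5 at an adjusted p of 0.1. Hepatoblast products numbered 0 to 4 without 1 array, 3 with a variance trend, 2 with array weights, 2 without the dimmest 50% and 4 at an adjusted p of 0.1. Over all genes 1480 passed, against 41 to 1395 without 1 array, 686 with the replicate block, 3 with a sex term and 2700 at an adjusted p of 0.1. A variance trend gave 1838, array weights 1654 and the filter on the dimmest 50% 2063. Relative to the products Foxa2 ran from -0.08 (without control replicate 3) to 0.12 without 1 array; relative to Hnf4a it was -0.16 and Onecut1 -0.0016. The cause of these changes was not tested. Lists of other cell types were put through the same alternatives after the data were seen.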
